A study of Homo sapiens with 6 samples.

Results

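The genes described here encode the subunits of the proteasome and the factors that help to assemble it. They were chosen by name: every protein-coding gene called PSMA, PSMB, PSMC, PSMD, PSME, PSMF or PSMG followed only by a number, plus POMP. The rule used no measured value and took 49 of the 58735 genes in the table. Messenger RNA was sequenced from AZ-521 cells exposed for 48 h to 10 µM platycodon D (PD), a triterpenoid saponin from balloon flower root, or to DMSO alone, with 3 samples in each group. Both groups were the same wild-type line in MEM with fetal bovine serum. The labels call it a gastric cancer line, whereas cell banks give its origin as duodenum. The question behind the comparison was how platycodon D works against gastric cancer cells.

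The proteasome is the large protease that degrades proteins tagged with ubiquitin. Its core particle is a stack of rings: outer alpha rings form the gate, and inner beta rings carry the proteolytic sites. A regulatory particle caps the core, and consists of a base, whose ATPases unfold the substrate, and a lid, which removes ubiquitin. Dedicated chaperones build each part, and cells are known to raise transcription of most subunit genes together when proteasome capacity falls short, largely through the transcription factor NRF1, the product of NFE2L1.

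Between 15328454 and 15821524 reads over genes were recovered for the PD samples, and between 14915538 and 16341687 for the DMSO samples. The labels do not tell whether replicates came from separate cultures; p-values therefore reflect the spread of these samples alone, possibly a technical one. PD replicate 3 and DMSO replicate 1 stood apart from the others of their groups. Their limma sample weights were 0.397 and 0.302, and the other 4 samples had weights between 0.780 and 2.61. Across genes, the deviation from the group mean correlated with GC content at a Spearman rho of 0.606, 0.0210 and -0.524 in PD replicates 1 to 3, and of -0.637, 0.462 and 0.535 in DMSO replicates 1 to 3. Of 7 stomach markers, all were under 1 FPKM in every sample and 3 were listed at 0. Of 7 intestine markers 6 were under 1 FPKM throughout, and CDX2 had a log2 fold change of -0.06 that did not pass. Of 6 epithelial markers, EPCAM, CDH1 and KRT8 stayed under 1 FPKM and KRT18 and KRT19 were listed at 0. The sixth, the tight junction gene CLDN4, averaged 2.68 FPKM under PD and 1.06 FPKM under DMSO and rose (log2 fold change 0.83, adjusted p = 0.00600). The 3 tested genes of 5 mesenchymal markers fell under PD, namely VIM by 0.39, CDH2 by 1.03 and FN1 by 0.61 on the log2 scale (adjusted p = 0.0367, 0.00162 and 0.00221). The 5 together summed to between 110.8 and 126 FPKM in PD samples and between 158 and 169.8 FPKM in DMSO samples. VIM lost its call without any 1 sample other than PD replicate 3 (adjusted p from 0.0702 to 0.129). The part of these marker changes in the proteasome values was not tested. All 6 immune and all 4 endothelial markers were under 1 FPKM in every sample.

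In PD-treated cells, transcripts of 14 of the 29 tested ring, base and lid subunits rose relative to DMSO-treated cells, and none fell. Of the assembly factors, POMP rose, none of the other 7 did, and PSMG3 fell; the difference between subunits and assembly factors was not tested. Values are FPKM, fragments scaled to gene length and to a divisor for each sample. Fold changes are on the log2(FPKM + 1) scale, which understates changes at low levels. A gene is said to have risen or fallen at an adjusted p under 0.05 (limma, Benjamini-Hochberg over the 13579 genes with at least 1 FPKM in at least 3 samples). Of the 49 genes, 43 passed that filter, 15 of these rose, 1 fell and 27 did not pass the test. Over all tested genes 14.3% rose and 12.7% fell. The median log2 fold change was 0.23 for the 43 proteasome genes and 0.00 for all tested genes. None of the 43 changed by 2-fold, whereas 3.82% of all tested genes both passed the test and changed at least that much. In 18 of the 43, all PD samples lay above all DMSO samples, and in 3 all lay below; these arrangements held for 22.5% and 21.9% of all tested genes. At an unadjusted p under 0.05, 18 were higher and 3 were lower, against 20.6% and 19.6% of all tested genes. In these bulk samples, a change in the RNA of each cell cannot be told apart from a change in the mix of cells. The count of 15 moved with single samples: it was 7, 9 and 8 without PD replicates 1, 2 and 3, and 13, 3 and 7 without DMSO replicates 1, 2 and 3, each fit having 1 sample fewer. The share of all tested genes that rose was 9.76%, 8.42% and 13.8% without PD replicates 1, 2 and 3. It was 13.6%, 9.15% and 9.56% without DMSO replicates 1, 2 and 3. The 3 of 43 left without DMSO replicate 2 were therefore no larger a share than among all tested genes. Without both samples that stood apart, 14 rose, 3 fell and the median was 0.13, while 17.7% of all tested genes rose and 15.9% fell. With every sample scaled to the same total of reads, 9 rose and 4 fell; the median of all genes then moved to -0.10, that of the proteasome genes to 0.12, and rises made up 33.4% of all calls, against 52.9% with the values as deposited.

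**Figure D1:**
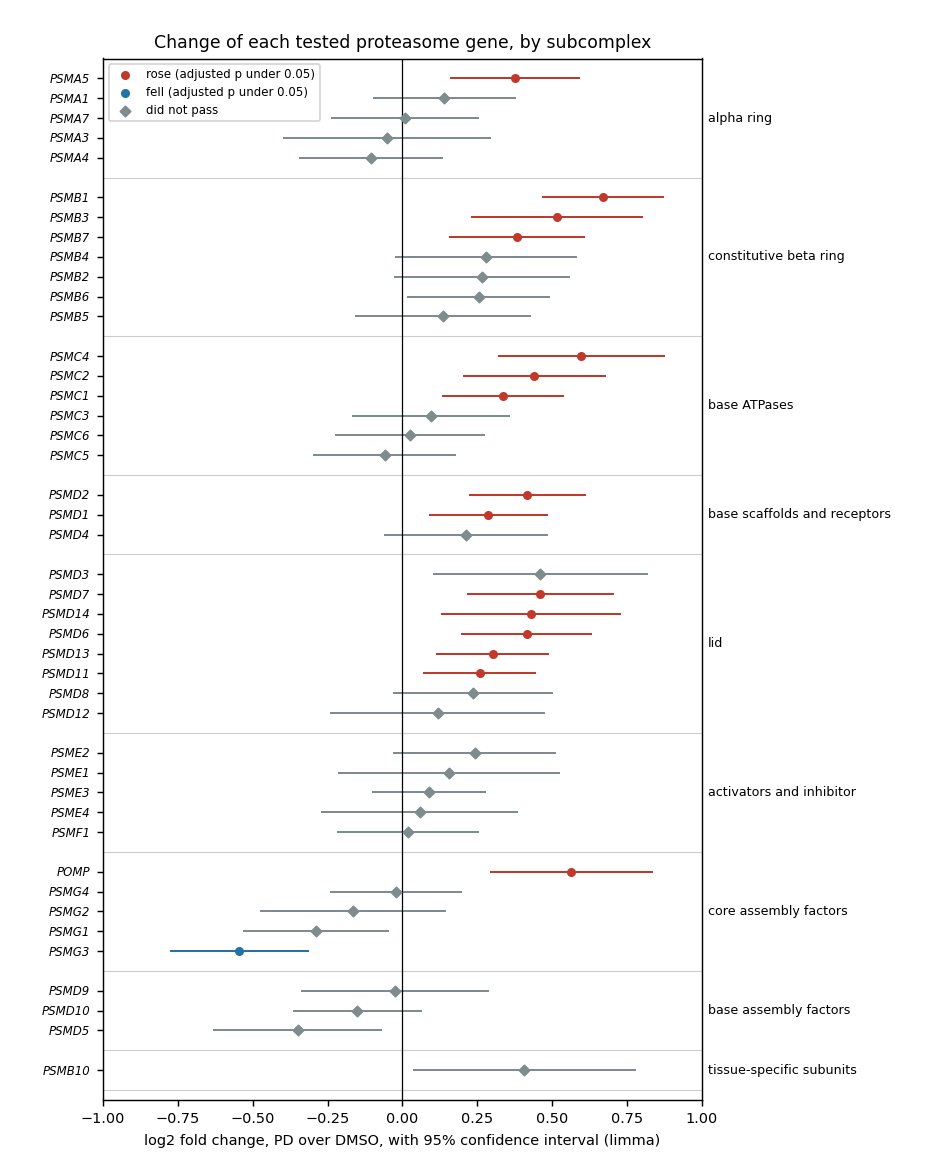
Log2 fold change, PD over DMSO, of the 43 tested proteasome genes, grouped by subcomplex; bars are limma's 95% confidence intervals and colour marks genes past the test. The beta ring, the base and the lid hold 13 of the 15 genes that rose, and PSMG3 is the gene that fell.

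The largest rises were in a beta subunit, an ATPase and an assembly factor. PSMB1, a non-catalytic subunit of the beta ring, had 69.4, 66.5 and 75.3 FPKM in the PD samples, against 45.2, 42.2 and 44.0 FPKM in the DMSO samples. The groups did not overlap, the mean was 60.7% higher under PD, and the log2 fold change was 0.67 ± 0.09 (SE; adjusted p = 0.00213). PSMC4, an ATPase of the base, had 85.5, 75.5 and 83.8 FPKM in PD samples, against 46.6, 53.7 and 61.1 FPKM in DMSO samples. Its lowest PD sample was above its highest DMSO sample, and its log2 fold change was 0.60 ± 0.12 (SE; adjusted p = 0.0103). POMP, which escorts the beta subunits into the half-built core and is degraded as the core matures, had 61.7, 56.9 and 71.1 FPKM in PD samples, against 39.5, 40.7 and 47.0 FPKM in DMSO samples. It too separated the groups, with a log2 fold change of 0.56 ± 0.11 (SE; adjusted p = 0.0119). These 3 genes passed the test in all 18 alternative settings tried, with adjusted p up to 0.0206, 0.0415 and 0.0475.

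Promoter sequences are shown for a chosen set of genes. PSMC4 and POMP are the strongest risers that have an entry, and PSMB3 and PSMD1 are the risers that hold the motif below in its longer form. PSMD3 holds one but just missed the test, and PSMG1 is a chaperone that was lower. Since PSMB3, PSMD1 and PSMD3 were picked for the motif, the windows shown do not reflect how often risers hold it. Windows run from 250 bases before to 50 after the annotated start (RefSeq, GRCh38.p14) and were found for 43 of the 49 genes. The windows are chr19:39970915-39971214 (+) for PSMC4, chr13:28658880-28659179 (+) for POMP, chr17:38752491-38752790 (+) for PSMB3, chr2:231056617-231056916 (+) for PSMD1, chr17:39980557-39980856 (+) for PSMD3 and chr21:39183402-39183701 (-) for PSMG1. Each reads 5′ to 3′ on the gene's strand, and capitals mark TGACNNNGC on either strand, the core of the antioxidant response element that NRF1 binds with small MAF proteins.
PSMC4: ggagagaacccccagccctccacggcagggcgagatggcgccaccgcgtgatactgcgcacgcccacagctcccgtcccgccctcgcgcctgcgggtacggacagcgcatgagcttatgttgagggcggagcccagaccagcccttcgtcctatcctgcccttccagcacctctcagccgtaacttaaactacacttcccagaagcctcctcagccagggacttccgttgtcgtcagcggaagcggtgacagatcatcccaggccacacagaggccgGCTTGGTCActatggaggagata
POMP: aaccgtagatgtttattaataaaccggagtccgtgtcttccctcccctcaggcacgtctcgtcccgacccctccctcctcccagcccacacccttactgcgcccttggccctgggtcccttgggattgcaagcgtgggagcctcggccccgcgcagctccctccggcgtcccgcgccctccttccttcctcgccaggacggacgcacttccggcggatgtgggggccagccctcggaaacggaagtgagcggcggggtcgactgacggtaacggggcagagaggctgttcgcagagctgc
PSMB3: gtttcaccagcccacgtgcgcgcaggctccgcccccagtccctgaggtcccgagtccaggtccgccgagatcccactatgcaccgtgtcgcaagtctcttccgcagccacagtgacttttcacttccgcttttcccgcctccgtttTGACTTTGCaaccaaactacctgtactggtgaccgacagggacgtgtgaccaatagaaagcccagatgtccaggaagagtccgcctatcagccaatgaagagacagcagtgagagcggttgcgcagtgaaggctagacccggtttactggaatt
PSMD1: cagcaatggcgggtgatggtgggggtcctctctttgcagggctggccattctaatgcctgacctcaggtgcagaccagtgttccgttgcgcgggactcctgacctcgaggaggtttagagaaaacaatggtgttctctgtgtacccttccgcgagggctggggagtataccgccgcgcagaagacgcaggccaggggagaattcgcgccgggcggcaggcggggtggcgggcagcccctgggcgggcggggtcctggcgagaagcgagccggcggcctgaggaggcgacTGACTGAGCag
PSMD3: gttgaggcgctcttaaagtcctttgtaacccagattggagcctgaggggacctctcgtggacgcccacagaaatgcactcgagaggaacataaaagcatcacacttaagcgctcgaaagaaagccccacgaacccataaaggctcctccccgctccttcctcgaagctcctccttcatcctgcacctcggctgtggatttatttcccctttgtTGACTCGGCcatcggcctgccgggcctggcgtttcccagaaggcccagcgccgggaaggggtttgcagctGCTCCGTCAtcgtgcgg
PSMG1: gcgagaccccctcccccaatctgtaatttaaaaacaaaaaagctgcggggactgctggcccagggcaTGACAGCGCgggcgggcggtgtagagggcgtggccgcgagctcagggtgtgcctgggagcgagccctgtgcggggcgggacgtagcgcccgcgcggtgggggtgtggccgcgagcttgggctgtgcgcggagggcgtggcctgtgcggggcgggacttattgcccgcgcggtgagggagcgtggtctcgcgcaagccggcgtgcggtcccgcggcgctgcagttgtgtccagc

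PSMC4, PSMD1 and PSMG1 hold 1 match each, as does PSMB3, PSMD3 holds 2, and POMP holds none. The longer form, TGACNNNGC followed by A, was searched on both strands and contains the shorter one. It occurred in 9 of the 43 genes (20.9%), against 3.94% of the 27305 genes in the promoter table. It was found in 2 of the 13 risers that have a window, PSMB3 and PSMD1, and in 6 of the 24 tested genes with a window that did not rise. The shorter form was found in 34.9% of the proteasome genes and 16.1% of all genes, in 3 of the 13 risers and 11 of the 24 others. The ETS-like motif TTCCGG was present in 53.5% of the proteasome genes and 20.1% of all genes, in 9 of the 13 risers and 12 of the 24 others. The CCAAT box occurred in 46.5% against 39.7%, and the E-box CACGTG in 6.98% against 8.77%. These are matches of letters in a window, and no binding was measured.

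In the regulatory particle, 10 of 17 tested genes rose and none fell, against 14.3% and 12.7% of all tested genes. The median log2 fold change was 0.30, and 16 of the 17 values were positive. The count of 10 became 5, 4 and 5 without PD replicates 1, 2 and 3, and 9, 1 and 3 without DMSO replicates 1, 2 and 3. The 1 of 17 left without DMSO replicate 2 stands beside 9.15% of all tested genes. All 17 passed the filter on low values. In the lid, 5 of 8 rose. PSMD14, the deubiquitinase that cuts ubiquitin chains off the substrate, had 26.6, 27.2 and 33.8 FPKM in PD samples and 23.9, 18.9 and 21.4 FPKM in DMSO samples. Its PD samples lay above its DMSO samples, by a log2 fold change of 0.43 ± 0.13 (SE; adjusted p = 0.0437). PSMD7, its partner in the catalytic dimer, averaged 28.1 ± 2.90 FPKM under PD and 20.1 ± 1.46 FPKM under DMSO (SD, n = 3 each; log2 fold change 0.46, adjusted p = 0.0170). The lid scaffolds PSMD6, PSMD13 and PSMD11 rose by log2 fold changes of 0.41, 0.30 and 0.26. PSMD11 had the weakest call of all, at an adjusted p of 0.0489, and PSMD3 lay just outside the threshold at 0.0611 with a larger log2 fold change of 0.46. PSMD3, also a lid scaffold, had 36.9, 32.0 and 30.4 FPKM in PD samples and 18.8, 25.7 and 27.5 FPKM in DMSO samples. Its lowest value was in DMSO replicate 1, one of the samples that stood apart; without that sample its log2 fold change was 0.30 (adjusted p = 0.0867), and without PD replicate 3 as well it was 0.36 (0.0394). PSMD3 passed in 6 of the 18 alternatives. The other lid genes, PSMD8 and PSMD12, had log2 fold changes of 0.23 and 0.12 that did not pass.

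Calls in the lid were sensitive to single samples. Without DMSO replicate 2, all 5 lid genes lost their call, with adjusted p between 0.0556 for PSMD6 and 0.150 for PSMD11. Without DMSO replicate 3, all 5 lost it as well, with values between 0.0577 for PSMD7 and 0.109 for PSMD11. PSMD14, PSMD13 and PSMD11 also lost it without any 1 PD sample (adjusted p between 0.0519 and 0.121), PSMD6 without PD replicate 2 (0.0659), and PSMD11 without DMSO replicate 1 (0.0828).

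In the base, 3 of 6 ATPases rose: PSMC4, PSMC2 and PSMC1. PSMC2 averaged 35.7 ± 3.065 FPKM under PD and 26.04 ± 2.02 FPKM under DMSO (SD, n = 3 each), a log2 fold change of 0.44 (adjusted p = 0.0177). PSMC1 averaged 14.7 ± 0.671 FPKM under PD and 11.4 ± 0.707 FPKM under DMSO (SD, n = 3 each), a log2 fold change of 0.33 (adjusted p = 0.0268). PSMC3, PSMC6 and PSMC5 had log2 fold changes of 0.10, 0.02 and -0.06, with 95% intervals from -0.17 to 0.36, from -0.22 to 0.27 and from -0.29 to 0.18. Neighbours in the same ATPase ring thus gave values from -0.06 to 0.60 in this comparison, and the difference between them was not tested. Without DMSO replicate 2 the adjusted p of PSMC2 was 0.0524, and PSMC1 lost its call when any 1 sample but DMSO replicate 1 was left out (0.0528 to 0.106).

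PSMD2 and PSMD1, the scaffolds of the base, both rose. PSMD2, a docking site for ubiquitin shuttle proteins, averaged 45.1 ± 1.46 FPKM under PD and 33.5 ± 1.70 FPKM under DMSO (SD, n = 3 each; log2 fold change 0.42, adjusted p = 0.0102). PSMD1 averaged 21.8 ± 1.06 FPKM under PD and 17.7 ± 0.887 FPKM under DMSO (SD, n = 3 each; log2 fold change 0.29, adjusted p = 0.0408). PSMD4, the intrinsic ubiquitin receptor, had 23.9, 19.8 and 19.8 FPKM in PD samples and 16.02, 18.6 and 19.8 FPKM in DMSO samples. The lowest PD value was barely above the highest DMSO value, and the log2 fold change of 0.21 ± 0.12 did not pass (SE; adjusted p = 0.215). PSMD2 had an adjusted p of 0.0529 without DMSO replicate 2, and PSMD1 one of 0.0811 to 0.147 without any 1 sample other than DMSO replicate 1.

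**Figure D2:**
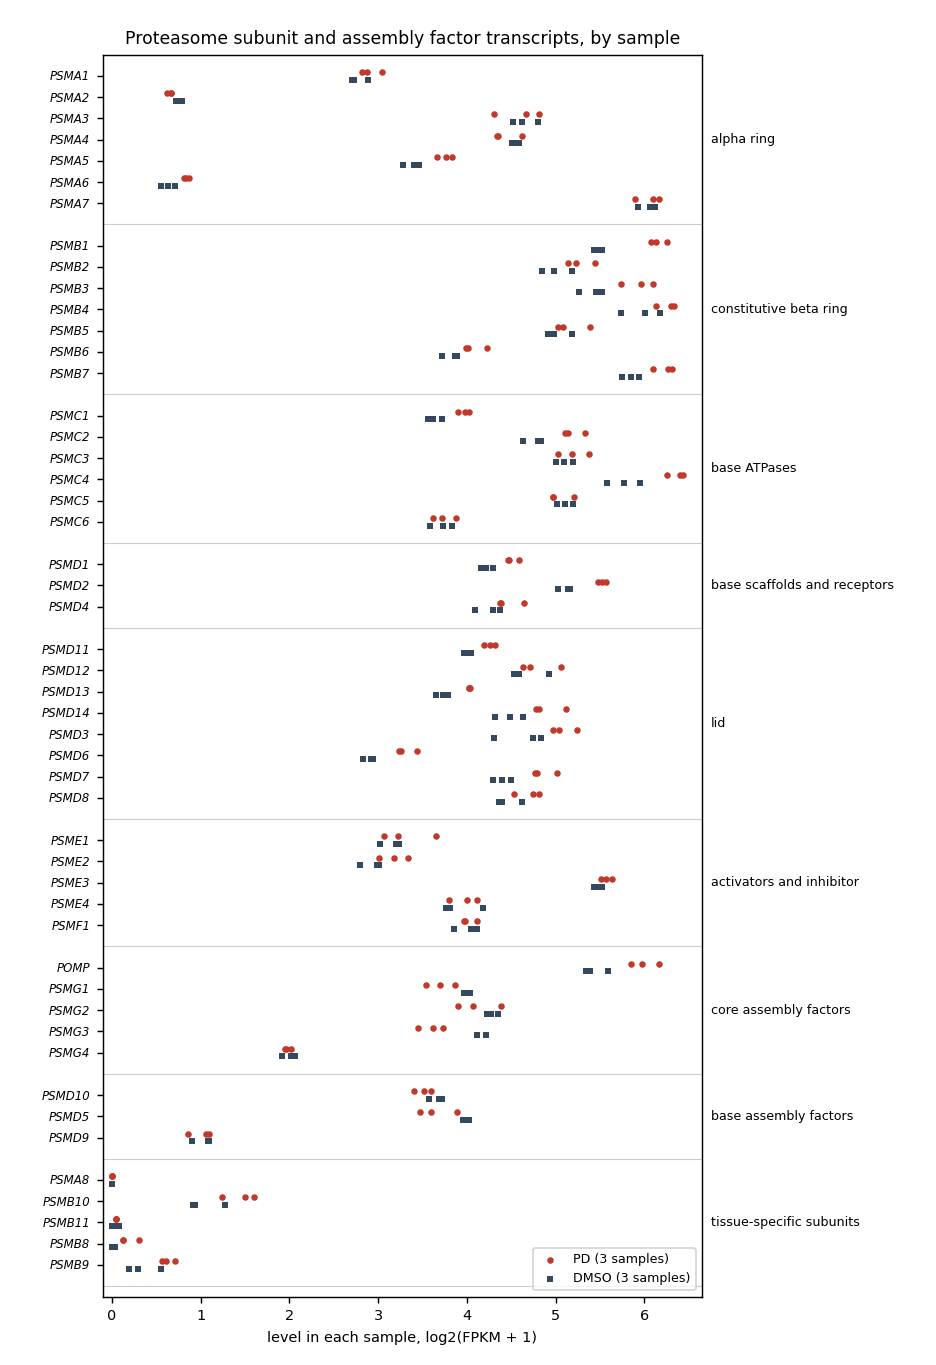
Level of all 49 genes in every sample, as log2(FPKM + 1), with PD samples as circles above and DMSO samples as squares below on each line. Groups are apart for most of the lid and for PSMB1, PSMC4 and POMP, while PSMA2, PSMA6 and the tissue-specific subunits other than PSMB10 sit near 0 in both groups.

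In the core particle, 4 of the 12 tested genes rose and none fell, against 14.3% and 12.7% of all tested genes. The median was 0.26. The beta ring held 3 of the 4, PSMB1, PSMB3 and PSMB7, and all 7 of its values were positive (median 0.28). The count of 4 became 1, 4 and 2 without PD replicates 1, 2 and 3, and 3, 1 and 3 without DMSO replicates 1, 2 and 3. Where it was 1, without PD replicate 1 or DMSO replicate 2, 9.76% and 9.15% of all tested genes rose. PSMB7, which carries the trypsin-like site, had 75.8, 67.7 and 78.4 FPKM in PD samples and 52.8, 56.5 and 60.2 FPKM in DMSO samples. It separated the groups with a log2 fold change of 0.38 ± 0.10 (SE; adjusted p = 0.0254). PSMB5, the chymotrypsin-like subunit that most proteasome inhibitors block, had 40.7, 31.7 and 32.8 FPKM in PD samples and 29.2, 30.7 and 35.4 FPKM in DMSO samples. Its groups overlapped and its log2 fold change was 0.13 ± 0.12 (SE; adjusted p = 0.458; 95% interval -0.16 to 0.42). PSMB6, the caspase-like subunit, had 14.9, 15.1 and 17.8 FPKM in PD samples and 13.5, 12.2 and 13.8 FPKM in DMSO samples. Its groups did not overlap, but its log2 fold change of 0.25 ± 0.10 did not pass (SE; adjusted p = 0.101).

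PSMB3, a structural beta subunit, averaged 60.4 ± 7.58 FPKM under PD and 41.8 ± 3.95 FPKM under DMSO (SD, n = 3 each; log2 fold change 0.52, adjusted p = 0.0199). The structural subunits PSMB4 and PSMB2 had log2 fold changes of 0.28 and 0.27 with overlapping groups. PSMB3 lost its call without PD replicate 1 (adjusted p = 0.0629) and without DMSO replicate 2 (0.0547). PSMB7 kept it only without PD replicate 2; its adjusted p was 0.0802 and 0.0566 without PD replicates 1 and 3, and 0.0513, 0.0824 and 0.0503 without DMSO replicates 1, 2 and 3.

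In the alpha ring, 1 of 5 tested genes rose, against 14.3% of all tested genes. This was PSMA5, with 12.5 ± 0.772 FPKM under PD and 9.42 ± 0.675 FPKM under DMSO (SD, n = 3 each; log2 fold change 0.38, adjusted p = 0.0222). Its adjusted p was 0.0663 and 0.0513 without PD replicates 1 and 3, and 0.0901 without DMSO replicate 2. PSMA7, the most abundant alpha transcript, averaged 65.4 ± 6.36 FPKM under PD and 64.9 ± 4.40 FPKM under DMSO (SD, n = 3 each; log2 fold change 0.01, 95% interval -0.24 to 0.25). PSMA1, PSMA3 and PSMA4 had log2 fold changes of 0.14, -0.05 and -0.10. The median of the 5 was 0.01 and became -0.11, -0.12 and -0.02 under equal totals, quantile and upper quartile scaling.

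**Figure D3:**
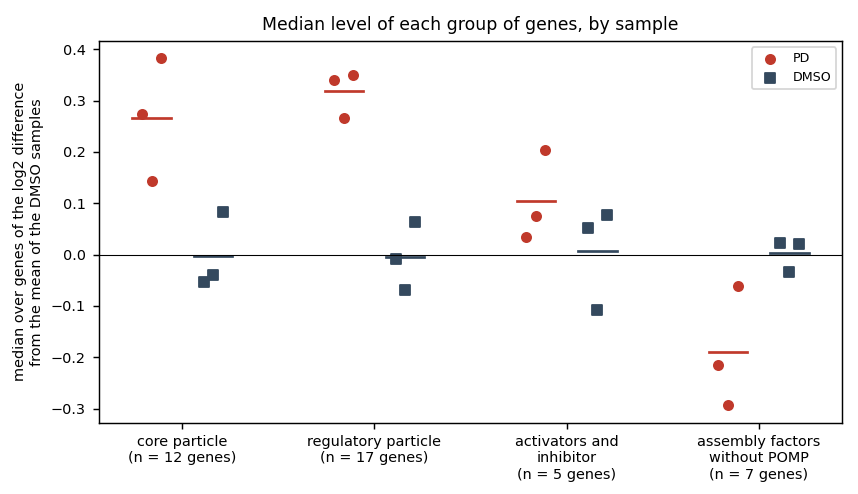
For each sample, the median over the tested genes of a group of the log2 difference from the mean of the DMSO samples; lines are means of 3 samples. In the regulatory particle the PD samples lie between 0.27 and 0.35, and in the assembly factors other than POMP between -0.29 and -0.06.

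Of the 8 assembly factors, POMP rose and the other 7 had negative log2 fold changes, from -0.54 to -0.02 with a median of -0.17. Because POMP, the 1 positive value, is set aside, the shared sign of the other 7 follows in part from that choice. Only PSMG3 of the 7 passed the test, while 12.7% of all tested genes fell. PSMG4 and PSMD9, both at -0.02, turned positive in some fits without 1 sample, reaching 0.0115 and 0.0463. PSMG3, a chaperone of alpha-ring assembly, had 11.3, 9.96 and 12.3 FPKM in PD samples and 17.5, 16.3 and 16.3 FPKM in DMSO samples. The groups were well apart, the mean fell by 33.1%, and the log2 fold change was -0.54 ± 0.10 (SE; adjusted p = 0.00750). It passed in all 18 alternatives, with adjusted p up to 0.0393. PSMD5, a chaperone of the ATPase base, had 10.1, 11.1 and 13.9 FPKM in PD samples and 15.3, 14.6 and 15.3 FPKM in DMSO samples. PSMG1, a chaperone of the alpha ring, had 10.6, 12.0 and 13.6 FPKM in PD samples and 14.7, 14.6 and 15.4 FPKM in DMSO samples. In both genes every PD sample was below every DMSO sample, with PD replicate 3 the nearest to the DMSO range. Their log2 fold changes were -0.35 ± 0.12 and -0.29 ± 0.10 (SE), with adjusted p of 0.0650 and 0.0748.

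Without PD replicate 3, PSMD5 and PSMG1 passed the test at adjusted p of 0.0152 and 0.0338. They also passed under equal totals, quantile and upper quartile scaling, so that 4, 3 and 3 of the 7 factors fell there; 20.7%, 15.4% and 14.8% of all tested genes fell under these scalings. PSMG2, the partner of PSMG1, had a log2 fold change of -0.17, and PSMG4, the partner of PSMG3, one of -0.02. The base chaperones PSMD10, also called gankyrin, and PSMD9 had values of -0.15 and -0.02.

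Activators and the inhibitor of the core did not pass the test in any case. PSME1, a subunit of the interferon-inducible PA28 activator, had 7.35, 8.33 and 11.5 FPKM in PD samples and 8.23, 7.145 and 8.40 FPKM in DMSO samples. PSME2, its partner subunit, had 8.035, 7.03 and 9.11 FPKM in PD samples and 6.91, 5.94 and 7.09 FPKM in DMSO samples. Groups overlapped in both, and their log2 fold changes were 0.16 and 0.24 (adjusted p = 0.496 and 0.1597). PSME3, the nuclear PA28 form, had 44.8, 48.6 and 46.3 FPKM in PD samples and 42.1, 44.2 and 44.9 FPKM in DMSO samples. PSME4, the PA200 activator, had 12.9, 15.0 and 16.4 FPKM in PD samples and 17.1, 13.01 and 12.6 FPKM in DMSO samples. PSMF1, the PI31 regulator first isolated as an inhibitor, had 16.4, 14.8 and 14.7 FPKM in PD samples and 13.5, 15.5 and 16.3 FPKM in DMSO samples. These 3 also overlapped between groups, with log2 fold changes of 0.09, 0.06 and 0.02. The 95% intervals reached from -0.10 to 0.28 for PSME3, from -0.27 to 0.38 for PSME4 and from -0.21 to 0.25 for PSMF1. The median of the 5 genes, 0.09, turned to -0.03 under equal totals.

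Immunoproteasome subunits, which replace the catalytic beta subunits in immune cells and after interferon, were scarce in both groups. PSMB10, the counterpart of PSMB7, had 1.83, 2.04 and 1.37 FPKM in PD samples and 0.878, 1.42 and 0.917 FPKM in DMSO samples. It entered the test through its PD samples, overlapped between groups, and did not pass (log2 fold change 0.41 ± 0.16, SE; adjusted p = 0.0960). PSMB9, the counterpart of PSMB6, had 0.530, 0.636 and 0.478 FPKM in PD samples and 0.466, 0.229 and 0.148 FPKM in DMSO samples. These rest on 77 reads over the PD samples and 42 over the DMSO samples. PSMB8, the counterpart of PSMB5, had 0.239, 0.0869 and 0.0890 FPKM in PD samples and 0.0217, 0.0196 and 0 FPKM in DMSO samples. Its sums were 19 and 2 reads, too few to size a difference. The thymus form PSMB11 had 3 reads in either group, and the testis form PSMA8 was listed at 0 in every sample, where a count of 0 allows up to 3 reads.

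The filter left 6 genes untested: PSMA2, PSMA6, PSMA8, PSMB8, PSMB9 and PSMB11. PSMA2 and PSMA6 are obligatory alpha subunits, yet PSMA2 averaged 0.570 FPKM under PD and 0.687 FPKM under DMSO, and PSMA6 averaged 0.783 FPKM under PD and 0.552 FPKM under DMSO. In GENCODE release 29, whose gene lengths equal those of the table for all 58735 genes, 81.0% of the principal transcript of PSMA6 and 52.5% of that of PSMA2 also belong to a longer gene on the same strand, AL121594.1 and AC010132.3. PSMA1, PSMB10 and PSMD9 share 53.2%, 45.3% and 43.8% in the same way, and all 5 were low: PSMA1 averaged 6.55 FPKM under PD and 5.85 FPKM under DMSO, PSMB10 1.74 and 1.07 FPKM, and PSMD9 1.01 and 1.04 FPKM. The part of this overlap in their levels was not tested, and levels of these 5 genes are uncertain. Without them 15 of 40 tested genes rose. On the opposite strand, PSMC1 shares 82.1% of its principal transcript with NRDE2, PSMD7 50.4% with AC009120.2 and PSMC5 27.2% with FTSJ3; the strand setting of the counting was not given in the sources used here, so reads of such pairs cannot be told apart. Outside the principal transcript, 352 bases of PSMD6, or 3.86% of its counted exons, are also covered by the antisense gene PSMD6-AS2. PSMD6-AS2 averaged 13.6 FPKM under PD and 4.21 FPKM under DMSO and rose by a log2 fold change of 1.48 (adjusted p = 0.00162), against 8.94 FPKM under PD and 6.45 FPKM under DMSO for PSMD6, whose level and rise are uncertain to that extent. NRDE2 had 2.15, 2.18 and 1.95 FPKM in PD samples and 1.46, 1.85 and 1.62 FPKM in DMSO samples, below PSMC1 in each. PSMG4 shares 13.3% of its counted exons with SLC22A23 and 1.67% with TUBB2B, both on the opposite strand. TUBB2B had 172, 145 and 173 FPKM in PD samples and 129, 120 and 168 FPKM in DMSO samples. The level and fold change of PSMG4 are uncertain to that extent. Of 32 annotated proteasome pseudogenes, 2 exceeded 1 FPKM in any sample.

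**Figure D4:**
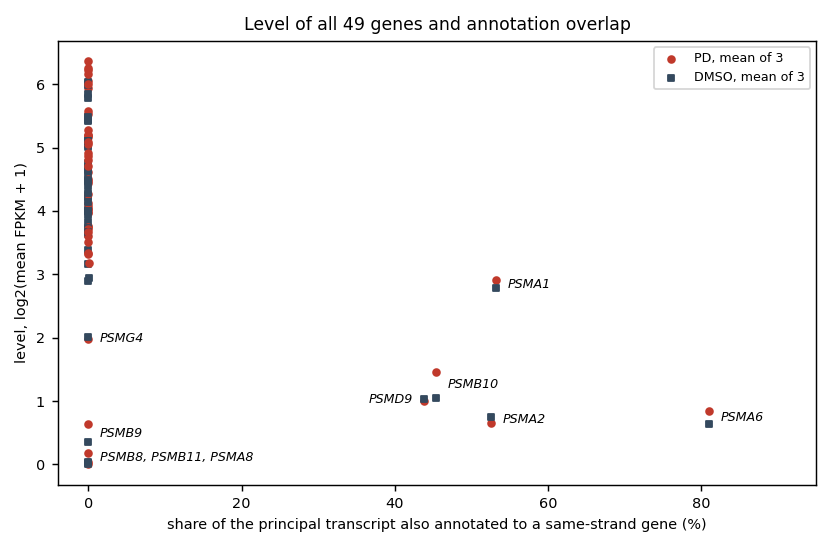
Level of all 49 genes, as log2(mean FPKM + 1), against the share of the principal transcript that a same-strand gene also covers. The 5 genes above 40% lie at or below 6.55 FPKM. Low FPKM also occur without such sharing, as in PSMB9, PSMB8, PSMB11 and PSMA8, all under 1 FPKM. PSMG4, without sharing, had 2.94 FPKM under PD and 3.01 FPKM under DMSO, but its counted exons are 12.4 times its principal transcript. Per kilobase of that transcript PSMG4 came to 36.6 under PD and 37.4 under DMSO.

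Levels differed across subunits. PSMA1, PSMA2 and PSMA6, which share over 40% of the principal transcript with a same-strand gene, were left out here. PSMC1, PSMD7 and PSMC5, with overlaps on the opposite strand, were kept. Mean DMSO levels of the remaining 28 particle subunits spanned a 10.1-fold range in FPKM. The table divides by the length of all annotated exons of a gene, which is up to 6.38 times that of the principal transcript among these subunits, in PSMD6. Per kilobase of the principal transcript the range was still 9.65-fold, with a median of 42.8. At the low end stood PSMA5 with 19.2 under PD and 14.5 under DMSO, and at the high end PSMB4 with 169 under PD and 139.6 under DMSO. PSMB1, the strongest riser, came to 171 under PD and 106 under DMSO on this scale, and PSMC4 to 122 under PD and 80.7 under DMSO. Across the 43 tested genes, the Spearman correlation of log2 fold change with DMSO level was 0.253 and with GC content -0.0444; these are descriptions across genes that share libraries.

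Genes around the proteasome were examined in 5 lists, each to be read beside the 14.3% of all tested genes that rose and the 12.7% that fell. The lists were chosen with earlier results of these data known, so these shares are no neutral yardstick for their counts. Of 18 proteasome-associated proteins outside the naming rule, 4 rose and none fell, with a median of 0.05. ZFAND5, an activator that binds the proteasome and is known for its role in muscle wasting, had 52.8, 54.7 and 68.7 FPKM in PD samples and 37.0, 30.1 and 32.5 FPKM in DMSO samples (log2 fold change 0.80, adjusted p = 0.00513). SEM1, the smallest lid subunit, and ADRM1, a ubiquitin receptor of the base, rose by 0.54 and 0.51, and AKIRIN2, which brings proteasomes into the nucleus, by 0.29. ZFAND5 passed in all 18 alternatives. SEM1 and ADRM1 lost their calls without PD replicate 1 (adjusted p = 0.0771 and 0.0560) or 2 (0.0684 and 0.0512), and AKIRIN2 lost its call without any 1 sample (0.0644 to 0.137). The deubiquitinases USP14 and UCHL5, which edit chains on the proteasome, had log2 fold changes of 0.01 and -0.08 that did not pass and changed sign in some alternatives.

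Of 18 genes for NRF1, its processing and its partners, 6 rose and 1 fell, with a median of 0.19. NFE2L1, which encodes NRF1, had 42.4, 37.5 and 32.8 FPKM in PD samples and 28.7, 36.8 and 35.4 FPKM in DMSO samples. Its groups overlapped and it did not pass (log2 fold change 0.16 ± 0.13, SE; adjusted p = 0.418). DDI2, the protease that cleaves NRF1 into its active form, had 14.1, 13.8 and 15.1 FPKM in PD samples and 12.5, 10.96 and 11.2 FPKM in DMSO samples. It separated the groups and rose (log2 fold change 0.29, adjusted p = 0.0459), a call lost without any 1 sample other than DMSO replicate 1 (0.0961 to 0.155). MAFF and MAFG, small MAF proteins that pair with NRF1 and NRF2, rose by 1.54 and 0.85 (adjusted p = 7.83e-05 and 0.000754). MAFF had 55.2, 48.8 and 50.8 FPKM in PD samples against 16.7, 17.2 and 17.4 FPKM in DMSO samples, and both genes passed in all 18 alternatives. HCFC1, a cofactor that stabilises NRF1, and VCP, the p97 ATPase that pulls NRF1 out of the endoplasmic reticulum, rose by 0.64 and 0.38. HCFC1 lost its call without PD replicate 1 or 2 (adjusted p = 0.0707 and 0.0806), and VCP without PD replicate 2 (0.0558) or DMSO replicate 2 or 3 (0.0724 and 0.0599). NGLY1, the glycanase that edits NRF1, fell by 0.31 on the log2 scale (adjusted p = 0.0446); its call was lost without any 1 sample other than PD replicate 3 (0.0880 to 0.149).

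Of 9 ubiquitin, E1 and E2 genes examined, 1 rose and none fell, with a median of -0.0054, while 14.3% of all tested genes rose. The riser was UBB, which encodes a chain of fused ubiquitins and had 83.95, 70.1 and 84.5 FPKM in PD samples and 43.6, 52.1 and 57.7 FPKM in DMSO samples (log2 fold change 0.63, adjusted p = 0.0124). Of 16 genes for p97 and its cofactors, 7 rose and none fell, with a median of 0.29. VCP is among these risers and was also counted in the NRF1 list. YOD1, a deubiquitinase that works with p97, had 28.98, 34.3 and 36.6 FPKM in PD samples and 9.38, 5.40 and 5.88 FPKM in DMSO samples (log2 fold change 2.15, adjusted p = 0.000545). UFD1, UBXN1 and FAF2, adaptors that bring substrates to p97, rose by 0.54, 0.53 and 0.45. UBB, YOD1, UFD1, UBXN1 and FAF2 passed in all 18 alternatives.

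Of 13 genes of antigen presentation and interferon signalling 11 were tested, 7 rose and none fell, with a median of 0.43. The count of 7 was 6 without PD replicate 1 and 5 without any other 1 sample. Under equal totals 5 rose and 1 fell. HLA-E, a class I heavy chain that presents peptides to natural killer cells, had 53.2, 50.3 and 44.5 FPKM in PD samples and 22.0, 23.8 and 24.4 FPKM in DMSO samples (log2 fold change 1.04, adjusted p = 0.000672). HLA-B and HLA-C, class I heavy chains that display peptides made by proteasomes, rose by 1.00 and 0.69, and TAPBP, which helps to load them, by 0.93. These 4 passed in all 18 alternatives, though reads of HLA genes can be split among near-identical relatives. TAP2 and IRF1, also among the 7, rose by 0.39 and 0.43 (adjusted p = 0.04995 and 0.0383). Their calls were not followed through the alternatives. The median of the associated proteins, 0.05, turned to -0.07 under equal totals and -0.0015 under quantile scaling, and that of the ubiquitin genes was negative in all 3 scalings. Medians of the other 3 lists were positive in each of these scalings.

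**Figure D5:**
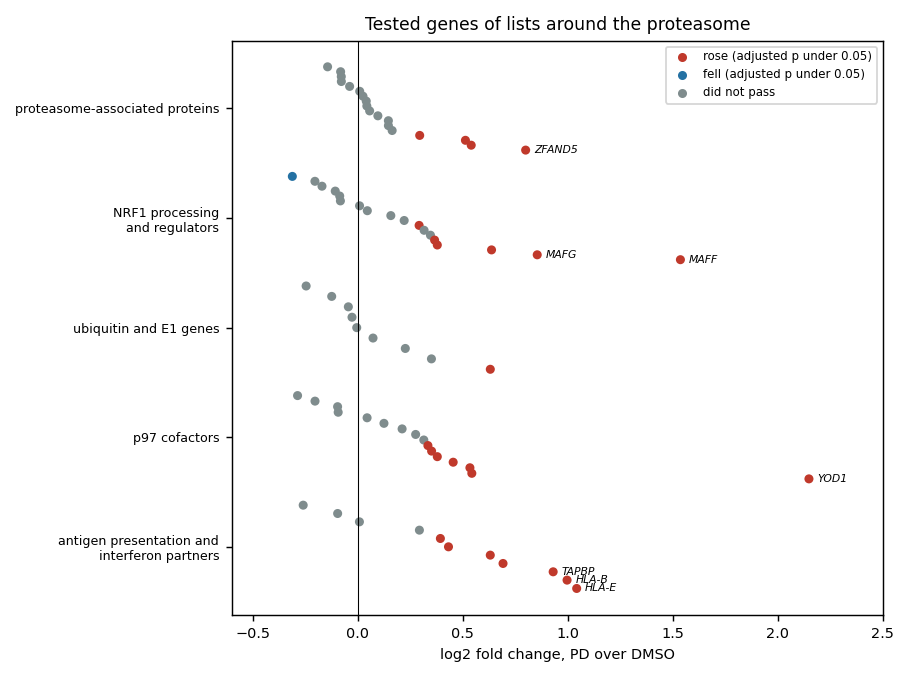
Log2 fold change, PD over DMSO, of the tested genes of 5 lists around the proteasome; each point is a gene, spread vertically for legibility, with genes past the test in colour. YOD1 at 2.15 and MAFF at 1.54 are above PSMB1 at 0.67, the highest proteasome subunit.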

How the data were processed

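The deposited file gives FPKM values computed by the authors, 1 column per sample, and gene lengths. Per the labels' protocols, libraries came from a stranded mRNA kit of Illumina and were read as pairs on a HiSeq machine; aligner, counting program and strand setting were not given in the sources used here. Mouse builds, GRCm38 and mm10, stand in the submitters' processing notes, but all 58735 genes match human GENCODE release 29 (GRCh38) in start, end and strand. FPKM times gene length was a whole multiple of 1 step per sample for 100% of values above 0 (tolerance 0.01), so whole reads were recovered.

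Values were compared as log2(FPKM + 1), PD minus DMSO, by the two-sided moderated test of limma 3.58.1 (R 4.3.3) with a mean-variance trend, over the 13579 genes with at least 1 FPKM in at least 3 samples, with Benjamini-Hochberg adjustment over all of them. The fit was tested on simulated data. The members and lists were chosen with earlier results of these data known. Values of every sample are given for the 3 tested members with the highest and the 3 with the lowest log2 fold change, the catalytic subunits, activators, PSMF1, POMP, PSMD4 and PSMD14; in other lists up to 4 genes past the test with the largest change were named, plus NFE2L1 and DDI2. PSMD3, NGLY1, USP14, UCHL5, PSMD6-AS2, SLC22A23, TUBB2B, IRF1, TAP2 and the marker genes were named after their values were seen. Some genes that belong to these lists are not reported here. Pseudocount, filter, scaling, weights, GC correction, biotype, replicate block, voom on the recovered reads and each sample were varied in 18 alternatives. No sample and 0 per-sample columns were left out. Plots come from matplotlib 3.10.9.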

Additional observations from a re-analysis of the deposited data

How the results depend on the processing

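Of 771 values of single members under the 18 alternatives, 632 kept their direction and side of the threshold, 76 lost the call, 26 gained it and 37 changed sign. The number of members that rose, 15, was 9 under equal totals, 3 with the replicate block and between 3 and 14 when 1 sample, or both that stood apart, were left out. With the replicate block, 8.02% of all tested genes rose and 5.56% fell. The deviations from the group mean showed no pairing by replicate number. Those of same-numbered samples correlated at -0.388, 0.168 and -0.163, and 1 of 6 samples correlated best with its own number. This check cannot exclude pairing, because the deviations cancel out within each group and followed GC content in several samples. The number of all genes that rose or fell, 3678, was 6301 with array weights, 2214 at a minimum mean of 5 FPKM, 1844 with the replicate block, and between 2003 and 4558 in those leave-out fits. The members' median, 0.23, was 0.12 under equal totals and 0.13 without DMSO replicate 1 and PD replicate 3, and at most 0.29 in the leave-out fits. Without the filter 10 members rose, of 48 fitted, against 4.48% of all genes fitted. Values that changed sign were all small and short of the threshold. With equal totals they were PSMA7 at -0.11, PSMC3 at -0.0247, PSMC6 at -0.0892, PSMD12 at -0.0004, PSME3 at -0.0314, PSME4 at -0.0583 and PSMF1 at -0.10. With quantile scaling they were PSMA7 at -0.12, PSME3 at -0.0106 and PSMF1 at -0.0204, and with upper quartile scaling PSMA7 at -0.0201, PSMC6 at -0.0012 and PSMF1 at -0.0077. Array weights gave PSMA3 0.0314, PSMA7 -0.12 and PSMF1 -0.0528; the GC correction gave PSMA7 -0.0337, and voom gave it -0.0005. Without both samples that stood apart, PSMA7 was at -0.10 and PSMF1 at -0.0307. The cause of these changes was not tested. In the fits without 1 sample the sign also changed for 9 members, whose log2 fold changes then ranged from -0.1602 to 0.0951 for PSMA3, -0.0493 to 0.0867 for PSMA7, -0.0431 to 0.0832 for PSMC6, -0.0114 to 0.241 for PSMD12, -0.0126 to 0.281 for PSME1, -0.0200 to 0.188 for PSME4, -0.0566 to 0.0736 for PSMF1, -0.0621 to 0.0115 for PSMG4 and -0.084 to 0.0463 for PSMD9. The named genes of the other lists, apart from IRF1 and TAP2, were put through the same alternatives after seeing the data, as were the marker genes that passed. USP14, at 0.0089, changed sign to -0.11 under equal totals, -0.0754 under quantile and -0.0184 under upper quartile scaling. Without 1 sample it ranged from -0.0834 to 0.105, and UCHL5 from -0.2438 to 0.0419; no other gene of these changed sign. SEM1 and AKIRIN2 passed in 11 and 6 of the alternatives. For PSMB8 and PSMB11 the few reads limit what could be seen.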
